A study of Mus musculus with 7 samples.

Results

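The genes described here are the chemokines, small secreted proteins that attract leukocytes and other cells, and their receptors. They were chosen by gene name: symbols of the form Ccl, Cxcl, Ccr or Cxcr with a number, together with Cx3cl1, Cx3cr1, Xcl1, Xcr1, the atypical receptors Ackr1 to Ackr4, and the platelet chemokines Pf4 and Ppbp. On the arrays 59 such genes had at least 1 probe, with 75 probes in all. A probe was analysed where 3 or more of the 7 arrays had it well above background by the scanner software's test, which left 36 of these genes, called measured below, among 23719 genes tested, and each gene was represented by the probe with the highest mean signal.

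RNA came from the heart apex of 7 male C57Bl/6 mice, with 1 single-colour Agilent array per mouse. The 3 double knockout mice (DKO) were homozygous for loxP-flanked Akt1 (exons 6 and 7) and Akt2 (exons 5 and 6), which encode protein kinases downstream of insulin and growth factor receptors, and heterozygous for MerCreMer, a Cre recombinase that acts once tamoxifen is given. MerCreMer was driven by the alpha myosin heavy chain promoter, which is active in cardiomyocytes, so deletion was aimed at cardiomyocytes and the other cells of the heart kept both genes. The 4 control mice were heterozygous for the same MerCreMer transgene and are not described as carrying loxP-flanked alleles. Mice of both groups were treated at an age of 3 months with hydroxytamoxifen, 500 µg a day on 5 days, and hearts were taken 10 days after induction. The sample names contain the word untreated although both groups received the inducer, and 1 sentence of the series text speaks of 4 knockout hearts where another, like the samples, gives 3. The question of the comparison is how transcripts of the whole heart differ after the loss of both kinases from cardiomyocytes.

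Chemokines are classed by the spacing of their conserved cysteines into CC, CXC, CX3C and XC ligands, and they act through G protein-coupled receptors named by the same classes. Atypical chemokine receptors bind ligands without G protein signalling and mostly remove or present them. In the heart, CX3CR1 marks many resident macrophages and CCR2 marks monocyte-derived macrophages, which CCL2, CCL7 and, in mice, CCL12 attract. CXCL12, made by endothelial and stromal cells, acts through CXCR4 on leukocytes and vascular cells.

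From 53.0% to 57.6% of the probes on each array passed the background test, no spot was saturated, and precision is limited by having 7 arrays. Arrays of the same group correlated at 0.984 to 0.994 over genes and arrays of different groups at 0.978 to 0.990. All 13 cardiomyocyte markers examined were well above background on all 7 arrays. The targeted genes were read by 5 probes. Akt2 fell on 3 of them, by 4.89-, 4.15- and 1.61-fold, with DKO arrays below all controls. The 2 Akt1 probes did not fall: they differed by 0.16 (adjusted p 0.209) and 0.46 (adjusted p 0.153) on the log2 scale, and whether they lie in the deleted exons is not known from the files. On the slide, control replicates 1, 3 and 4 and DKO replicate 3 lay in row 1, and control replicate 2 and DKO replicates 1 and 2 in row 2, so differences are also given within each row, where row 1 holds a single DKO array and row 2 a single control array. Each mouse was a separate animal.

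Across the 36 measured genes, 1 fell and 1 rose after the loss of Akt1 and Akt2. Ccl12, a ligand of Ccr2, fell, and Ccl11, the eosinophil attractant eotaxin, rose. These were 2 of 36 (5.56%), against 4.54% of all genes tested (2.25% higher and 2.29% lower in DKO hearts), at an adjusted p under 0.05 in limma with Benjamini-Hochberg adjustment over all genes, so the share lay near the background. In either direction the groups did not overlap for 7 of 36 (19.4%), 6 with the DKO arrays above and 1 below, against 25.6% of all genes, 12.8% above and 12.9% below. At an unadjusted p under 0.05 there were 10 of 36 (27.8%), against 25.4%. The mean was higher in DKO hearts for 22 of 36 (61.1%), against 46.1% of all genes, and the median log2 difference was 0.14 against -0.02. Past 2-fold was 1 of 36, Cxcl5, which was not called, and the share of all genes past 2-fold is not given here. The median absolute log2 difference was 0.24 over the 36 genes, against 0.18 over all genes. Every fold here lies on the log2 signal scale of 1 probe.

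**Figure D1:**
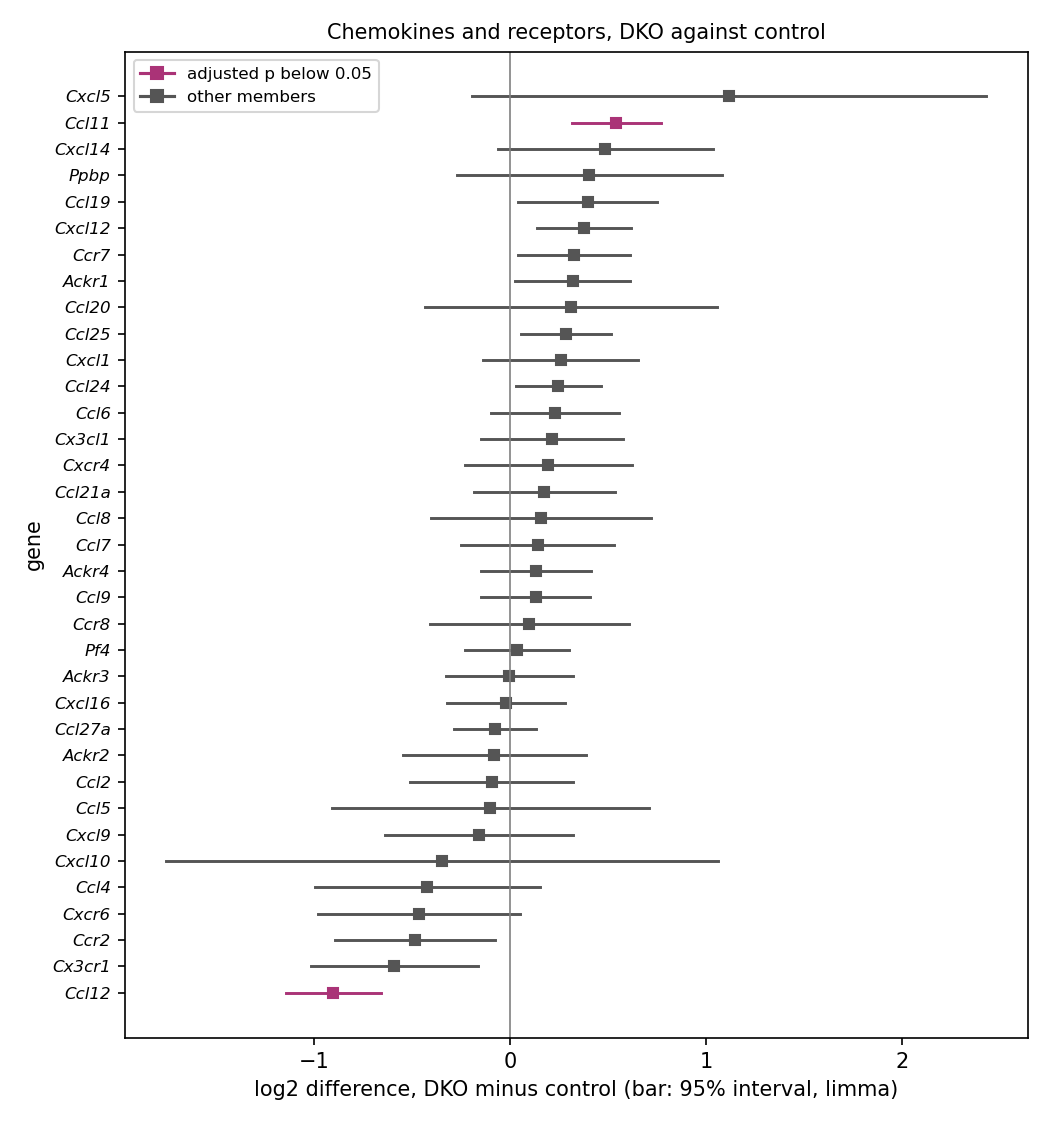
log2 difference (DKO minus control) of the measured genes named in the text, ordered by size, with 95% intervals from limma. Ccl12 at -0.90 and Ccl11 at 0.54, the genes with an adjusted p below 0.05, are the coloured points, and the interval of Cxcl10 is the widest.

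**Figure D2:**
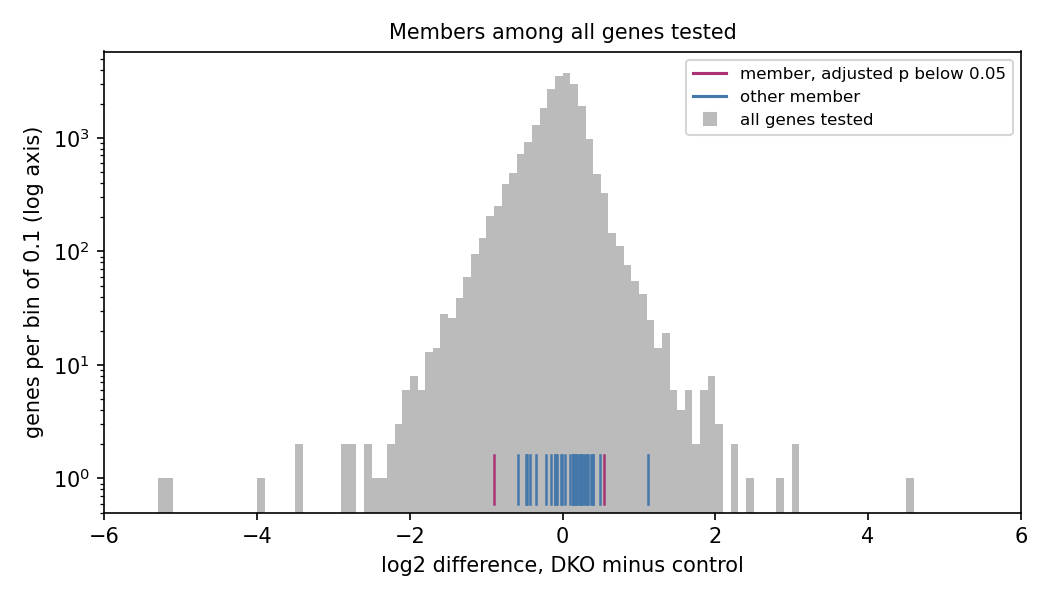
Log-scaled histogram of the log2 difference of all 23719 genes tested, with a tick for each of the 36 chemokine genes. The ticks lie within the central part of the histogram, between -0.90 (Ccl12) and 1.12 (Cxcl5).

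By class, 15 of 21 CC ligands were measured, 10 higher and 5 lower in DKO hearts with a median difference of 0.16, and both calls were among them. Of 14 CXC ligands 9 were measured, 6 higher and 3 lower with a median of 0.26 and 0 calls. Signalling receptors were measured for 7 of 18, 3 higher and 4 lower with 0 calls. All 4 atypical receptors were measured, 2 higher and 2 lower with a median of 0.06 and 0 calls. For the 0 calls among CXC ligands, signalling receptors and atypical receptors, the counts at an unadjusted p under 0.05 were 1, 3 and 1. The difference between ligands and receptors was not tested. The median over the measured genes, taken on each array relative to the control mean, was -0.04, 0.07, 0.02 and 0.00005 in the controls and 0.0056, 0.15 and 0.19 in the DKO hearts, so DKO replicate 1 lay within the control range and the other two above it.

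Differences were also taken within each slide row. Those in row 1 rest on a single DKO array, replicate 3, and those in row 2 on a single control array, replicate 2. In the counts that follow, slide row and single array cannot be told apart, and the same shares over all genes are not given here. The sign was the same in both rows for 17 of 36, 13 higher and 4 lower. In the other 19 the rows had opposite signs, and 16 of these were higher in DKO hearts in row 1 but not in row 2. The part of the slide row in these differences was not tested beyond the fit with the row as a block, in which 225 genes in all and 1 of the 36, Ccl12, were called.

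Of the measured ligands of Ccr2, Ccl12 fell, and Ccl2 and Ccl7 did not pass the test. Ccl12 had log2 signals of 8.31, 8.59, 8.30 and 8.41 in the controls and 7.48, 7.38 and 7.64 in the DKO hearts. All 3 DKO hearts lay below all 4 controls. The difference was -0.90 ± 0.10 (SE), a 1.87-fold fall (limma, adjusted p 0.0096, 95% interval -1.15 to -0.66), and it was -0.71 within row 1 and -1.15 within row 2. With the slide row as a block the adjusted p was 0.04. Leaving out 1 array at a time kept the call in 6 of 7 fits, and without DKO replicate 1 the adjusted p was 0.0516 at a difference of -0.89; with no filter on dim probes it was 0.0513. In whole tissue, fewer cells of a type and less RNA per cell cannot be told apart.

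To show the DNA in front of the genes on which the results turn, the start regions of 3 ligands are printed from the RefSeq promoter table of build GRCm38.p6, each running from 250 bases before to 50 bases after the annotated start, 5′ to 3′ on the gene's own strand. Ccl12 is the gene that fell, Cxcl12 is a ligand whose 2 probes both lay higher in every DKO heart than in every control, and Cxcl10 is the member that varied most between mice of a group. The Ccl12 window is chr11:82101595-82101894 on the + strand, the Cxcl12 window chr6:117168285-117168584 on the + strand, and the Cxcl10 window chr5:92348840-92349139 on the - strand. Capitals mark the motifs that were searched and found.
Ccl12: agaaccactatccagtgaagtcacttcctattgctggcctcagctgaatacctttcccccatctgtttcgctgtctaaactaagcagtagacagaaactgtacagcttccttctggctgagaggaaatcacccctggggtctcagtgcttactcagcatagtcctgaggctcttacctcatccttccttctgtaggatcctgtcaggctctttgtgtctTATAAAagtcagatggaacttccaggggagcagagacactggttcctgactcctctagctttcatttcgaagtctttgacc
Cxcl12: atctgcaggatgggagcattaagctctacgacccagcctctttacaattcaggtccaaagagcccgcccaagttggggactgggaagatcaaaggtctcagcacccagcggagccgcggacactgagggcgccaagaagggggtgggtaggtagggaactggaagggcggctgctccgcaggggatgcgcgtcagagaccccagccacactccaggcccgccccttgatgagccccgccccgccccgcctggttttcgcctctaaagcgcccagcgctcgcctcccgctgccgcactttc
Cxcl10: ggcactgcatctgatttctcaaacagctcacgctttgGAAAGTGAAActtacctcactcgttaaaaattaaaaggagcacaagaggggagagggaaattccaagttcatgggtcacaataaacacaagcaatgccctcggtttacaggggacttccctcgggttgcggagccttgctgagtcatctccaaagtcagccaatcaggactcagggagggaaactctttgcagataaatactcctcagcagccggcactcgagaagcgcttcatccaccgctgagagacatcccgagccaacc
In Ccl12 the capitals are TATAAA, the TATA box letters, beginning at position -31 from the start. In Cxcl10 they are a match to GAAA, any pair of bases and GAAA, the letters of an interferon response element, beginning at position -213. None of the motifs searched was found in the Cxcl12 window, whose GC content was 64.7%, against 48.0% for Ccl12, 50.3% for Cxcl10 and a median of 52.7% over all promoters.

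Of the 59 genes, 45 had an entry in that table. Motifs were searched on both strands. A narrow form of the NF-kB letters, GGGA, any base and then TTTCC, was present in 4 of 45 (8.89%), Cxcl1, Cxcl2, Cxcl3 and Ccr3, against 0.466% of 27025 genes. Among these 4, Cxcl1 was the gene with a measured level in the heart. The stricter NF-kB letters, GGGAC and then TTTCC, which the former contain, were in 0 of 45 and in 0.174% of all genes. GAAA, any pair of bases and GAAA was found for Ccl19, Cxcl10 and Cxcl14, 6.67% against 3.99%. The forkhead letters GTAAACA, searched because forkhead factors are substrates of Akt kinases, were in 0 of 45 and in 4.05% of all genes. TATAAA, a motif added after the data had been seen, was in 14 of 45 (31.1%), against 15.7%. A match describes letters in this window and not a working site. Looser spellings of the NF-kB letters were not searched, so a gene without a match, such as Cxcl10, may still hold them.

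Ccl2, the main monocyte attractant, had signals of 9.85, 10.04, 9.69 and 9.74 in the controls and 9.88, 9.32 and 10.000 in the DKO hearts. The groups overlapped, DKO replicate 2 was the lowest of the 7, and the difference was -0.094 ± 0.18 (SE) (adjusted p 0.767, 95% interval -0.51 to 0.32). Ccl7, which also binds Ccr2, had signals of 8.26, 8.56, 8.23 and 8.47 in the controls and 8.63, 8.16 and 8.78 in the DKO hearts. The DKO range spanned that of the controls, with DKO replicate 2 lowest and DKO replicate 3 highest, and the difference was 0.14 ± 0.17 (SE) (adjusted p 0.623). The receptor Ccr2 had signals of 5.38, 5.53, 5.97 and 5.73 in the controls and 5.03, 5.46 and 5.03 in the DKO hearts. DKO replicates 1 and 3 lay below all controls and DKO replicate 2 within them. Its difference was -0.48 ± 0.17 (SE) (adjusted p 0.145, unadjusted p 0.0264), -0.67 within row 1 and -0.29 within row 2.

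Ccl8, a relative of Ccl12 whose mouse form acts on Ccr8, ranged from 8.61 to 9.15 in controls and 8.65 to 9.61 in DKO hearts, with a difference of 0.16 ± 0.24 (SE) (adjusted p 0.708). Ccr8 itself ranged from 4.69 to 5.57 in controls and 5.05 to 5.54 in DKO hearts, a difference of 0.10 ± 0.21 (SE) (adjusted p 0.803). Both overlapped between groups. On chromosome 11 of GRCm38.p6 these ligand genes stand side by side in the order Ccl2, Ccl7, Ccl11, 1 further annotated gene, Ccl12 and Ccl8. Within this row of neighbours Ccl11 rose, Ccl12 fell, and Ccl2, Ccl7 and Ccl8 did not pass the test. Of the measured chemokine genes 0 lay on chromosome 12 with Akt1 or chromosome 7 with Akt2.

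Eotaxins recruit eosinophils through Ccr3, whose own probe was well above background on no array. Ccl11 had signals of 7.05, 7.36, 7.25 and 7.21 in the controls and 7.71, 7.70 and 7.87 in the DKO hearts. Each DKO heart lay above each control. The difference was 0.54 ± 0.10 (SE), a 1.46-fold rise (limma, adjusted p 0.0315, 95% interval 0.32 to 0.77), 0.70 within row 1 and 0.35 within row 2, and with the row as a block the adjusted p was 0.0872. The call was kept in 2 of 7 fits that left out 1 array. It was lost without control replicate 3 (adjusted p 0.0724), control replicate 4 (0.0909), DKO replicate 1 (0.0932), DKO replicate 2 (0.0821) or DKO replicate 3 (0.0941), with the difference between 0.49 and 0.59 in all 7. It was also lost under quantile normalization (adjusted p 0.0567), under normexp background correction (0.0575 and 0.0565), with the authors' deposited values (0.0584) and with no filter on dim probes (0.131).

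Ccl24, the other eotaxin measured, had signals of 9.06, 9.22, 9.28 and 9.02 in the controls and 9.36, 9.48 and 9.34 in the DKO hearts. DKO hearts lay above the controls on all 3 arrays, the closest pair being 9.28 and 9.34, and the difference of 0.25 ± 0.092 (SE) did not pass (adjusted p 0.155, unadjusted p 0.0307).

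**Figure D3:**
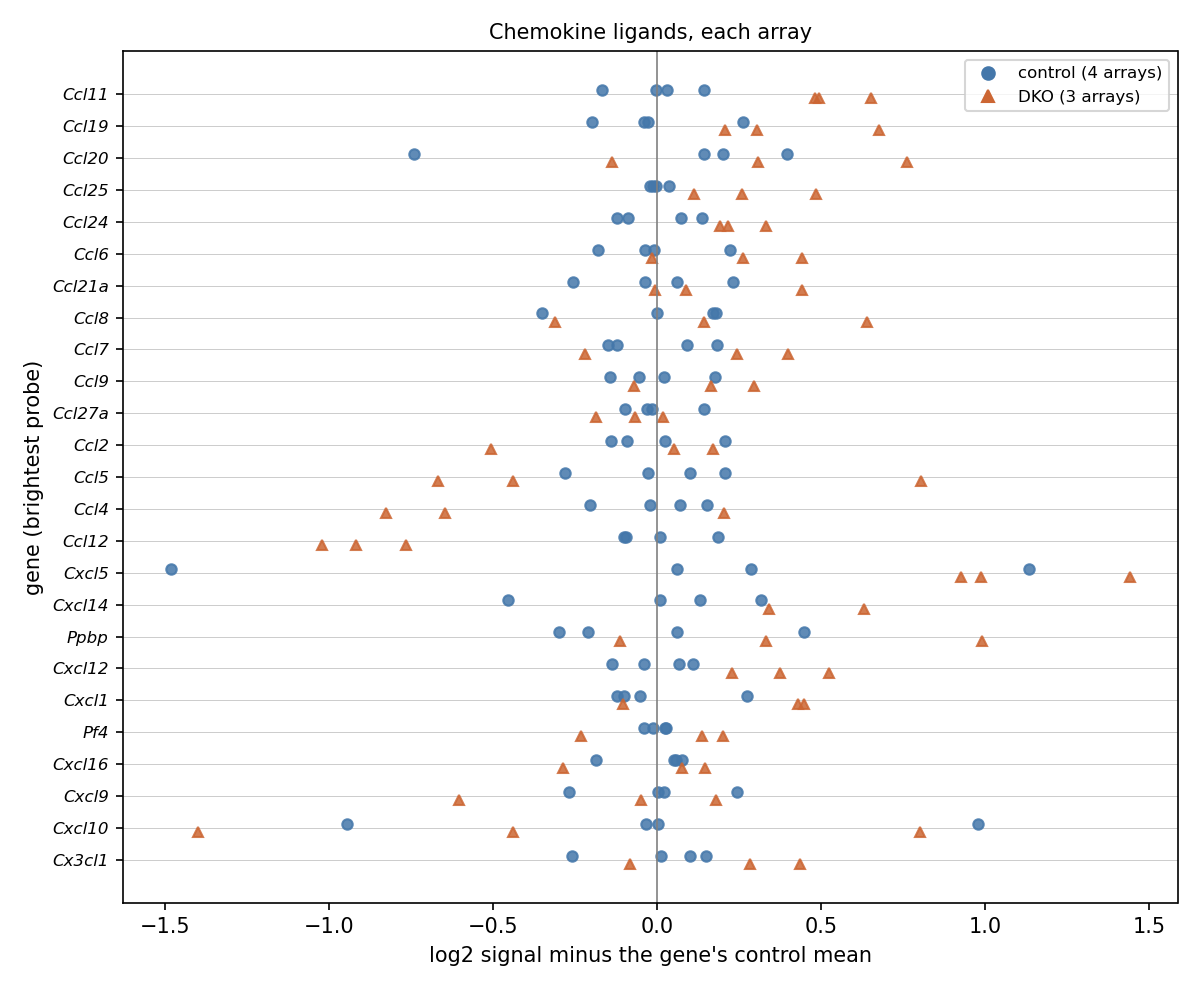
log2 signal of each ligand's probe minus that gene's control mean, for the 4 control arrays (circles) and 3 DKO arrays (triangles), grouped as CC, CXC and CX3C ligands. All Ccl12 triangles lie left of the circles, all Ccl11 triangles lie right of them, and Cxcl10 and Cxcl5 are spread widely in 1 group or both.

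Homeostatic ligands guide cells in the resting state. Cxcl12, the ligand of Cxcr4 and Ackr3, was read by 2 probes. The brighter had signals of 14.45, 14.34, 14.24 and 14.49 in the controls and 14.90, 14.75 and 14.61 in the DKO hearts. The second had signals of 8.83, 8.72, 8.83 and 8.86 in the controls and 9.17, 9.19 and 9.15 in the DKO hearts. On both probes the 3 DKO hearts lay above the 4 controls. The differences were 0.38 ± 0.10 (SE) (adjusted p 0.0845 over genes) and 0.36 ± 0.069 (SE) (adjusted p 0.0385 over all 30536 kept probes, of which 4.24% were called), so the brighter probe, which represents the gene, did not pass and the second did. The call of the second probe was held in 0 of 7 fits without 1 array, with adjusted p from 0.0621 to 0.117, and its adjusted p was 0.0834 with the row as a block. With the mean of the 2 probes as the value, the gene had an adjusted p of 0.0484, and with a trended variance the brighter probe had 0.0336. Across 16 alternative settings other than leaving out an array, the gene was called in 3, with adjusted p up to 0.272. The row as a block gave 0.181 on the brighter probe. In the 7 fits without 1 array it was called in 0 (adjusted p 0.108 to 0.203).

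The receptors of Cxcl12 overlapped between groups. Cxcr4 ranged from 5.73 to 6.28 in controls and 5.90 to 6.51 in DKO hearts, a difference of 0.19 ± 0.18 (SE) (adjusted p 0.533). Ackr3, which takes up Cxcl12 without G protein signalling, ranged from 12.996 to 13.57 in controls and 13.31 to 13.36 in DKO hearts, a difference of -0.0037 (adjusted p 0.99, 95% interval -0.33 to 0.32). Its 3 DKO arrays lay inside the control range.

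Ccl19 and Ccl21a, ligands of Ccr7 that lead dendritic cells and naive T cells into lymphoid tissue, have near-identical copies in the mouse genome and are uncertain as single genes. Ccl19 had signals of 6.41, 6.58, 6.87 and 6.57 in the controls and 6.91, 6.81 and 7.28 in the DKO hearts. DKO replicates 1 and 3 lay above all controls and DKO replicate 2 within them, with a difference of 0.40 ± 0.15 (SE) (adjusted p 0.163, unadjusted p 0.0338). Ccl21a ranged from 11.77 to 12.26 in controls and 12.02 to 12.47 in DKO hearts, a difference of 0.18 ± 0.15 (SE) (adjusted p 0.503). The receptor Ccr7 had signals of 5.33, 5.46, 5.58 and 5.50 in the controls and 5.54, 5.94 and 5.90 in the DKO hearts. DKO replicates 2 and 3 stood above all controls. Its difference was 0.33 ± 0.12 (SE) (adjusted p 0.155, unadjusted p 0.0303), 0.43 within row 1 and 0.28 within row 2. None of the 3 passed the test.

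Ccl25, the ligand of Ccr9 in thymus and gut, had signals of 7.86, 7.91, 7.87 and 7.85 in the controls and 8.36, 8.13 and 7.99 in the DKO hearts. The controls lay close together and all 3 DKO hearts above them. The difference was 0.29 ± 0.10 (SE) (adjusted p 0.134, unadjusted p 0.0223), and Ccr9 was well above background on no array. Ackr4, which removes Ccl19, Ccl21 and Ccl25, ranged from 6.53 to 6.83 in controls and 6.66 to 6.99 in DKO hearts, a difference of 0.13 ± 0.12 (SE) (adjusted p 0.522).

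Cxcl14, an epithelial and stromal chemokine, had signals of 11.54, 12.12, 12.31 and 11.998 in the controls and 12.33 and 12.62 in DKO replicates 1 and 3. The spot of DKO replicate 2 carried an outlier flag and was left out of the fit; its own value was 11.16, below all controls. The difference over the 6 arrays was 0.49 ± 0.22 (SE) (adjusted p 0.239), and with the flagged spot kept it was 0.048 (adjusted p 0.948). A second probe overlapped between groups, 0.22 ± 0.32 (SE). Cxcl14 counts among the 7 genes without overlap because of that omission.

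Ccl27a, known from skin, was read by 3 probes with differences of -0.08, 0.0044 and 0.10, and has a near-identical copy. The brightest ranged from 10.20 to 10.44 in controls and 10.11 to 10.31 in DKO hearts (adjusted p 0.612). Its direction was not the same on the 3 probes.

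The CX3C axis had its ligand and its receptor on opposite sides, with neither called. Cx3cr1, carried by resident macrophages and patrolling monocytes, was read by 2 probes. The brighter had signals of 9.70, 9.37, 9.88 and 9.51 in the controls and 8.82, 8.86 and 9.39 in the DKO hearts. DKO replicates 1 and 2 lay below all controls and DKO replicate 3 just above the lowest. The second probe had signals of 6.91, 6.98, 7.46 and 7.21 in the controls and 5.88, 6.45 and 6.77 in the DKO hearts, with all DKO hearts below all controls. The differences were -0.59 ± 0.18 (SE) (adjusted p 0.107) and -0.77 ± 0.23 (SE) (adjusted p 0.104 over probes), and neither passed. On the brighter probe the difference was -0.31 within row 1 and -0.52 within row 2. Cx3cl1, its membrane-bound ligand fractalkine, had signals of 9.87, 10.23, 10.28 and 10.14 in the controls and 10.42, 10.05 and 10.57 in the DKO hearts. The groups overlapped, and the difference was 0.21 ± 0.15 (SE) (adjusted p 0.422).

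Beside this axis, the summed signals of the 18 macrophage markers overlapped between groups. Of the 18, 11 were higher and 7 lower, 0 passed (1 at an unadjusted p under 0.05), the median difference was 0.04, and the summed linear signal was 32951 to 35498 in controls and 30342 to 40530 in DKO hearts. Lyz2, the lysozyme of macrophages and other myeloid cells, had the smallest p (9.48 to 9.72 in controls, 9.78 to 10.15 in DKO hearts, difference 0.33 ± 0.11 (SE), adjusted p 0.131). Csf1r, C1qa, Adgre1 and Mrc1 were all well above background on all 7 arrays. Among the monocyte and neutrophil markers 10 of 14 were tested with 5 higher, 5 lower and 0 called (1 at an unadjusted p under 0.05). Their median difference was 0.03, and the sum was 97642 to 142038 in controls and 86289 to 107045 in DKO hearts. Csf3r had the smallest p of these (15.15 to 15.82 in controls, 14.74 to 15.14 in DKO hearts, difference -0.60 ± 0.18 (SE), adjusted p 0.102). The part of macrophage or monocyte number in the values of Cx3cr1, Ccr2 and Ccl12 was not tested.

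**Figure D4:**
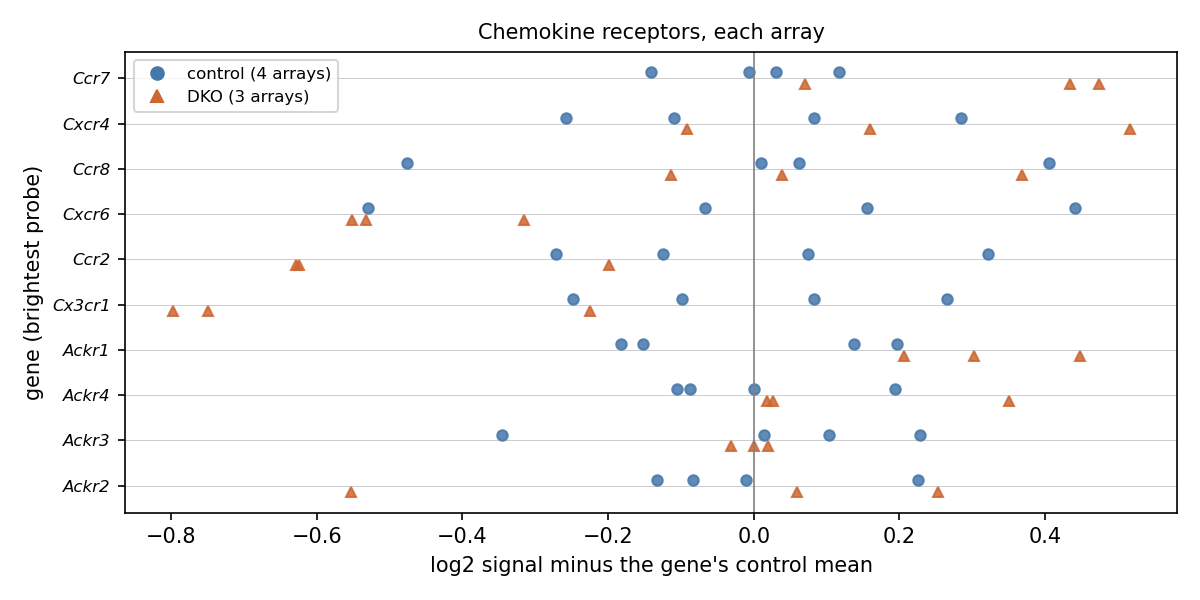
log2 signal of the probe of each measured receptor named in the text minus that gene's control mean on the 4 control arrays (circles) and 3 DKO arrays (triangles), signalling receptors above atypical receptors. Ackr1 is the row whose groups do not overlap; the Cx3cr1 and Ccr2 triangles lie mostly left of the circles.

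Ccl4 and Ccl5, inflammatory ligands of macrophages and lymphocytes, overlapped between groups. Ccl5, made by T cells and natural killer cells, had signals of 7.16, 7.54, 7.65 and 7.42 in the controls and 6.77, 7.003 and 8.25 in the DKO hearts. DKO replicates 1 and 2 were the lowest arrays and DKO replicate 3 the highest, with a difference of -0.10 ± 0.34 (SE) (adjusted p 0.878), 0.84 within row 1 and -0.65 within row 2. Ccl4 was well above background on 3 control arrays and 1 DKO array. It ranged from 4.72 to 5.08 in controls and 4.10 to 5.13 in DKO hearts on the brighter probe, a difference of -0.42 ± 0.24 (SE) (adjusted p 0.319). The second Ccl4 probe gave -0.37 ± 0.67 (SE). The T and natural killer cell markers, of which 7 of 12 were tested, had a median difference of -0.16 with 0 called, 0 at an unadjusted p under 0.05, and sums of 2149 to 2478 in controls and 1915 to 2170 in DKO hearts; Cd3g, Cd8a, Klrb1c and Ncr1 were well above background on no array.

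Ccl6 and Ccl9, macrophage ligands of Ccr1 in rodents, overlapped between groups. Ccl6 ranged from 10.51 to 10.91 in controls and 10.67 to 11.13 in DKO hearts, a difference of 0.23 ± 0.14 (SE) (adjusted p 0.34). Ccl9 ranged from 9.57 to 9.89 in controls and 9.64 to 10.01 in DKO hearts, a difference of 0.13 ± 0.12 (SE) (adjusted p 0.521). Ccr1 was well above background on no array. Ccl20, the ligand of Ccr6, was well above background on 3 control and 2 DKO arrays and ranged from 3.79 to 4.93 in controls and 4.39 to 5.29 in DKO hearts, a difference of 0.31 ± 0.32 (SE) (adjusted p 0.571).

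Cxcl9 and Cxcl10, interferon-induced ligands of Cxcr3, overlapped between groups, and Cxcl10 had the widest spread of the 36 genes. Cxcl10 had signals of 5.83, 6.74, 6.78 and 7.75 in the controls and 5.38, 6.34 and 7.58 in the DKO hearts. Control replicate 1 and DKO replicate 1 were low, control replicate 4 and DKO replicate 3 high, and the groups overlapped fully. The difference was -0.35 ± 0.60 (SE) (adjusted p 0.746, 95% interval -1.75 to 1.06). The within-group SD was 0.93, at percentile 99 of all genes tested, and the wide interval leaves the direction of the difference unresolved with these arrays. Cxcl9 had signals of 8.69, 9.20, 8.98 and 8.96 in the controls and 8.35, 8.91 and 9.14 in the DKO hearts. DKO replicate 1 was the lowest array, as it was for Cxcl10 and Ccl5, and the difference was -0.16 ± 0.20 (SE) (adjusted p 0.656). Their receptor Cxcr3 was well above background on 2 control arrays and no DKO array, too few to be tested. The median within-group SD was 0.242 over the 36 genes and 0.164 over all genes.

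Neutrophil attractants act on Cxcr2, which was well above background on 1 control array, control replicate 4, at 5.47 against 2.04 to 3.52 on the other arrays. Cxcl5 had signals of 4.25, 2.71, 5.33 and 4.48 in the controls and 5.12, 5.63 and 5.18 in the DKO hearts. It was well above background on 1 control array and 2 DKO arrays, the fewest that the filter allows, and control replicate 2 was far below the rest. The difference was 1.12 ± 0.56 (SE) (adjusted p 0.257, 95% interval -0.20 to 2.43), and 0.62 without control replicate 2. Cxcl1 ranged from 7.18 to 7.58 in controls and 7.20 to 7.75 in DKO hearts, a difference of 0.26 ± 0.17 (SE) (adjusted p 0.374). Ppbp, a platelet chemokine, ranged from 6.04 to 6.79 in controls and 6.23 to 7.33 in DKO hearts, a difference of 0.40 ± 0.29 (SE) (adjusted p 0.414). Pf4, platelet factor 4, which resident macrophages also express, ranged from 12.28 to 12.35 in controls and 12.09 to 12.52 in DKO hearts, a difference of 0.035 ± 0.11 (SE) (adjusted p 0.873, 95% interval -0.23 to 0.30). All 4 overlapped between groups. Of the megakaryocyte and platelet markers 6 of 10 were tested, 3 higher and 3 lower with 0 called and 0 at an unadjusted p under 0.05, and the sums were 285 to 718 in controls and 361 to 474 in DKO hearts; Itga2b, Gp1ba and Tubb1 were well above background on no array.

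Cxcl16, a membrane-bound ligand, and its receptor Cxcr6 of lymphocytes each had 2 probes that differed in sign. For Cxcl16 the differences were -0.021 ± 0.13 (SE) on the brighter and 0.21 ± 0.11 (SE) on the second, with adjusted p of 0.934 over genes and 0.274 over probes. For Cxcr6 they were -0.47 ± 0.22 (SE) (adjusted p 0.232) and 0.081 ± 0.20 (SE). No direction is given for either gene.

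Atypical receptors were well above background on all 7 arrays. Ackr1, which carries many CC and CXC ligands across venular endothelium and is also on red cells, had signals of 5.31, 5.25, 4.96 and 4.93 in the controls and 5.42, 5.32 and 5.56 in the DKO hearts. All DKO hearts lay above all controls, and the difference was 0.32 ± 0.12 (SE) (adjusted p 0.169, unadjusted p 0.0368), 0.49 within row 1 and 0.12 within row 2. Ackr2, which degrades inflammatory CC ligands, ranged from 8.06 to 8.41 in controls and 7.63 to 8.44 in DKO hearts, a difference of -0.08 ± 0.20 (SE) (adjusted p 0.826). DKO replicate 3 was its lowest array and DKO replicate 1 its highest.

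The remaining 23 of 59 genes did not pass the filter, and 21 of them were well above background on no array. Among ligands these were Ccl1, Ccl3, Ccl17, Ccl22, Ccl26, Ccl28, Cxcl2, Cxcl3, Cxcl13, Cxcl15, Cxcl17 and Xcl1. Among receptors they were Ccr1, Ccr3, Ccr4, Ccr6, Ccr9, Ccr10, Cxcr1, Cxcr5 and Xcr1, with Cxcr2 and Cxcr3 above background on 1 and 2 arrays. This does not show that they are not expressed. At the edge of the filter, Cxcl5 passed with 3 arrays and Ccl4 with 4, and Cxcr3 missed it with 2. Of the 36 that passed, 32 were above background on every array.

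Around these genes, lists of related genes were counted against the 4.54% background. Of 31 tested genes of receptor signalling, 1 rose and 0 fell. It was Rgs2, a regulator that speeds the shut-off of G proteins (11.57 to 12.26 in controls, 12.76 to 13.11 in DKO hearts, difference 0.93 ± 0.19 (SE), adjusted p 0.0421), called in 1 of 7 fits without 1 array (adjusted p 0.0436 to 0.129, kept without control replicate 3) and at an adjusted p of 0.102 with the row as a block. Grk5, a receptor kinase, did not pass (9.34 to 9.62 in controls, 9.77 to 10.02 in DKO hearts, difference 0.45 ± 0.10 (SE), adjusted p 0.0517). The list had 19 higher and 12 lower, with a median of 0.02, and summed signals of 61461 to 65460 in controls and 68035 to 71986 in DKO hearts, which did not overlap. Bright genes weigh most in such a sum. Rgs2 and also Rgs5 (12.83 to 13.09 in controls, 13.23 to 13.39 in DKO hearts) were higher in every DKO heart than in every control. The median over the list on each array, relative to the control mean, did overlap. It was -0.04 to 0.02 in controls and -0.03, 0.07 and 0.07 in DKO hearts. Of 33 tested inducing cytokines and NF-kB or IRF factors, 1 rose and 0 fell. It was Socs3, a feedback inhibitor of cytokine signals (8.85 to 8.93 in controls, 9.19 to 9.40 in DKO hearts, difference 0.39 ± 0.076 (SE), adjusted p 0.0404), called in 0 of 7 fits without 1 array (adjusted p 0.0605 to 0.116) and at 0.0865 with the row as a block. Tlr4, the receptor of bacterial lipopolysaccharide, did not pass (7.33 to 8.39 in controls, 8.91 to 9.14 in DKO hearts, difference 1.06 ± 0.24 (SE), adjusted p 0.0542). That list had 19 higher and 14 lower, with a median of 0.04, and the inducers Il1a, Il6 and Ifng were well above background on no array.

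Of 19 leukocyte adhesion genes, 0 were called and 2 had an unadjusted p under 0.05, with 15 higher, 4 lower and a median of 0.11. Icam1, an endothelial ligand of leukocyte integrins, had the smallest p (5.84 to 6.22 in controls, 6.45 to 6.63 in DKO hearts, difference 0.51 ± 0.12 (SE), adjusted p 0.0651). Sele and Madcam1 were well above background on no array. Of 19 chemokine-like ligands, related receptors and processing enzymes, 0 were called and 7 had an unadjusted p under 0.05, with 13 higher, 6 lower and a median of 0.07. Their summed signals, 38875 to 46016 in controls and 46919 to 50331 in DKO hearts, did not overlap. Bright genes such as Mif (13.95 to 14.18 in controls, 14.26 to 14.41 in DKO hearts) weigh most in this sum. The list's median on each array did overlap, at -0.10 to 0.03 in controls and 0.02, 0.15 and 0.14 in DKO hearts. Among them Rarres2, the precursor of chemerin, had the smallest p (11.83 to 12.08 in controls, 12.20 to 12.27 in DKO hearts, difference 0.29 ± 0.088 (SE), adjusted p 0.108).

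Some marker lists of other cell types lay higher in the DKO hearts, beside the higher means of most chemokine genes. For endothelial cells 15 of 16 markers were higher with a median of 0.18 and summed signals of 149663 to 167466 in controls and 174798 to 178073 in DKO hearts. For fibroblasts 12 of 13 were higher with a median of 0.14 and sums of 208887 to 213263 in controls and 221525 to 251974 in DKO hearts. For B cells 4 of 5 tested were higher with a median of 0.63 and sums of 265 to 367 in controls and 395 to 494 in DKO hearts, and Cd79a, Blk and Jchain were well above background on no array. Of these 4, Ms4a1 was well above background on 0 control and 3 DKO arrays, so it passed the filter through the DKO hearts alone. Its signals were 2.00 to 4.76 in controls and 4.76 to 5.15 in DKO hearts, and its difference rests on control values near background. In these 3 lists the sums of the groups did not overlap, while 0 genes passed the test. At an unadjusted p under 0.05 there were 5 of 16, 4 of 13 and 2 of 5, against 25.4% of all genes. Bright genes such as Fabp4 and Gsn weigh most in such sums. The B cell median on each array did overlap, at -0.33 to 0.46 in controls and 0.44 to 0.80 in DKO hearts. The endothelial medians (-0.07 to 0.10 in controls, 0.17 to 0.19 in DKO hearts) did not. Neither did those of fibroblasts (-0.09 to 0.07 in controls, 0.09 to 0.25 in DKO hearts). The part of these 3 cell types in the values of Ccl11, Cxcl12, Ccl19, Ccr7 and Ackr1 was not tested.

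The other cell type lists overlapped in their sums. For mural cells the list's median on each array did not overlap, at -0.03 to 0.07 in controls and 0.20 to 0.23 in DKO hearts. For mast cells it did not overlap either, at -0.13 to 0.0024 in controls and 0.11 to 0.28 in DKO hearts. The median difference of the mural markers was 0.23, and 7 of 11 had an unadjusted p under 0.05, against 25.4% of all genes. Of 11 mural cell markers 8 were higher and 1, Myh11, a smooth muscle myosin, rose (8.93 to 9.27 in controls, 9.50 to 9.92 in DKO hearts, difference 0.63 ± 0.13 (SE), adjusted p 0.0479; called in 1 of 7 fits without 1 array, adjusted p 0.0469 to 0.141, kept without DKO replicate 3; 0.0909 with the row as a block). Dendritic cell markers had 6 of 8 higher (median 0.06), mast cell markers 4 of 6 (median 0.22), erythroid markers 4 of 5 (median 0.10), lymphatic endothelial markers 5 of 7 (median 0.03), mesothelial markers 1 of 2 (median -0.05) and cardiomyocyte markers 6 of 13 (median -0.04), with 0 called in each and 0, 1, 0, 1, 0 and 5 at an unadjusted p under 0.05. Of these lists Clec9a, Ms4a2 and the mesothelial Upk3b, Upk1b, Krt19, Lrrn4 and Bnc1 were well above background on no array. A few genes stood in 2 lists, such as Pecam1, Cdh5 and Esam among adhesion and endothelial genes.

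**Figure D5:**
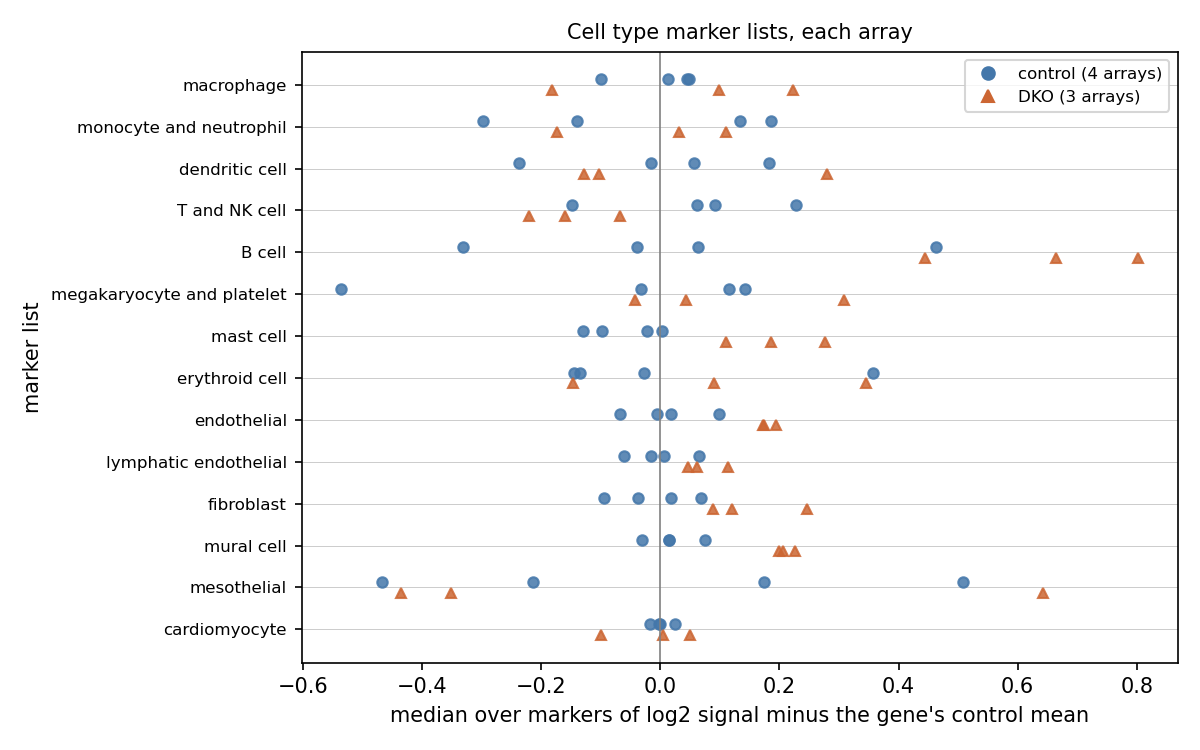
Median over each cell type marker list of the log2 signal minus the gene's control mean, on the 4 control arrays (circles) and 3 DKO arrays (triangles). Endothelial, fibroblast, mural and mast cell triangles lie right of the circles; the macrophage, monocyte and T cell lists overlap.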

How the data were processed

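Feature Extraction 12.0.3.1 with the protocol GE1_1200_Jun14 quantified the scanned arrays of design 074809, whose probe positions are on mm9, per the file headers; 100 ng of total RNA were labelled with Cy3, per the labels. The authors deposited, for 62976 spots per array, the processed signal as a background-subtracted intensity, median spot and background intensities, and flags. Their deposited value table of 56745 rows holds log2 values that correlated at 0.99995 to 0.99998 with quantile-normalized, probe-centred scanner values; every column median was 0.

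Here control and outlier-flagged spots were dropped, and each array's 75th percentile was subtracted from log2 signal (constant 9.11 added). Probes were named through accessions in a RefSeq table of GRCm38.p6 (32994 of 56605 matched, 23611 did not). Copy-lettered symbols such as Ccl21a were counted as members. The group comparison used limma (version 3.58.1, R 4.3.3; lmFit, eBayes, group as the single term, two-sided, 5 residual and 2.09 prior degrees of freedom, Benjamini-Hochberg over 23719 genes, threshold 0.05), checked on simulated data. A probe missing on 1 array was fitted without that array. Replicate numbers come from the sample names; deviations of same-numbered arrays correlated at 0.129, 0.00688 and 0.0328, so they were not treated as pairs. Normexp alternatives (offset 50) used the median signal.

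The genes and lists were chosen with earlier results of these data known. Named are all measured chemokine genes but 1, whose values are not reported here, Akt1, Akt2, and from each other list called genes and up to 3 with the smallest p; other cell types are described by list, and defining markers above or below background were picked after their values were seen. The other alternatives covered normalization, the filter on dim probes, the choice of probe, the variance model, array weights, the slide row, the replicate number and each array left out; keeping flagged spots and leaving out probes with a missing value were added after the data had been seen.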

Additional observations from a re-analysis of the deposited data

Results flagged for a closer look

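In the 4 control arrays of Cxcl16, control replicate 3 had a log2 signal of 8.50, apart from the other controls at 8.74, 8.75 and 8.77, a gap larger than Dixon's 95% critical value allows. Of 36 genes whose control arrays were examined this way, 1 was marked, and chance marks about 1 group in 20. The second Cxcl16 probe had control signals of 7.93, 7.86, 8.11 and 8.17, with control replicate 3 not the lowest.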

How the results depend on the processing

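Over 23 other settings, 24 of the 36 chemokine genes kept their sign and 12 reversed in at least 1; the median of all genes moved between -0.03 and 0.01. The reported fit called 1077 genes, 2 of them chemokine genes. Quantile normalization and the authors' deposited values each left 1 chemokine gene (Ccl12). Normexp called 602 genes with the 75th percentile and 710 with quantile normalization, with 1 chemokine gene each. With no filter there were 120 genes and 0 chemokine genes (Ccl12 at an adjusted p of 0.0513, Ccl11 at 0.131), and the median difference of the chemokine genes became 0.036. A trended variance called 2020 genes and 3 chemokine genes, and array weights 1651 and 2. The mean of a gene's probes and the second brightest probe also gave 3 chemokine genes; the third was Cxcl12 in each (adjusted p 0.0336, 0.0484 and 0.0356 in the order given). The slide row as a block called 225 genes and 1 chemokine gene. Fits without 1 array called 165 to 968 genes and 0 to 2 chemokine genes. The cause of these changes was not tested.

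Sign reversals in log2 difference were as follows. Ackr3 was 0.0094 with median centring. Cxcl16 was 0.011 and Pf4 -0.0048 under normexp with the 75th percentile, and 0.017 and -0.032 under normexp with quantile normalization. With the mean of probes Ccl27a was 0.0087 and Cxcl16 0.093. With the second probe Ccl27a was 0.0044, Cxcl16 0.21 and Cxcr6 0.081. Ackr2 was 0.0105 with array weights. With the slide row as a block Ccl5 was 0.14, Ccr8 -0.084 and Cxcl10 0.00065. Leaving out 1 array gave ranges that crossed 0: Ackr2 -0.25 to 0.16, Ackr3 -0.12 to 0.072, Ccl2 -0.23 to 0.11, Ccl5 -0.55 to 0.18, Ccl8 -0.084 to 0.39, Ccr8 -0.061 to 0.23, Cxcl9 -0.33 to 0.066, Cxcl10 -0.92 to 0.18, Cxcl16 -0.11 to 0.11 and Pf4 -0.048 to 0.17.

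The replicate number as a block left 1 gene called and 0 chemokine genes (Ccl12 at an adjusted p of 0.141, Ccl11 at 0.159), with Ackr3 at 0.072 and Cxcl16 at 0.0041; it leaves few degrees of freedom, and the numbers do not pair the animals. Signal over background limits Cxcl5, Ccl4 and Ccl20, which were above background on 3, 4 and 5 arrays, and with 3 DKO arrays differences of genes as variable as Cxcl10 cannot be resolved.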
